A study of Mus musculus with 8 samples.

Results

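The 10 genes described here are targets of the liver X receptors and genes of sterol efflux, measured in mouse alveolar macrophages by bulk RNA sequencing. They were chosen by symbol from the deposited gene table: Nr1h3, Abca1, Abcg1, Apoe, Apoc1, Pltp, Mylip, Srebf1, Scd1 and Scd2, which are 10 of its 37310 rows. All 10 had enough counts to be tested, as did 14537 genes of the table. In all, 8 libraries were sequenced in 4 groups with 2 libraries each, and every library held a pool of 3 mice or of 3 cultures, so the pools were the units of replication. The exAM libraries held alveolar macrophages of C57BL/6 donors, 8 weeks old, that had been expanded outside the body and were collected, unsorted, after 2 months of culture. The texAM libraries held such expanded cells recovered from the lung 4 months after transfer into Ly5.1 recipients that were 8 weeks old. The tAM libraries held macrophages that had been transferred in the same way without culture and were likewise recovered after 4 months. Both donor populations were sorted from lung homogenate as live cells with SiglecF, CD11c and the donor form of CD45. The HostAM libraries held the cells with the host form of CD45 from C57Bl/6-Ly5.1 mice, which were 8 weeks old when this strain was used for transfer, and the labels do not say whether those mice had received cells.

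Liver X receptors are nuclear receptors that are switched on by oxysterols and some other sterols, and they bind DNA as partners of the retinoid X receptors. In macrophages they raise transporters and apolipoproteins that carry cholesterol out of the cell, an E3 ligase that limits sterol uptake, and the factor SREBP-1c with the fatty acid desaturases under it. Alveolar macrophages take up and break down surfactant lipid, and loss of the efflux transporters in these cells is known to lead to lipid-laden macrophages.

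In the cultured cells, 8 of the 10 genes were lower than in transplanted uncultured macrophages and none was higher, by edgeR's quasi-likelihood test at a Benjamini-Hochberg adjusted p under 0.05. The background was large in this comparison, with 23.2% of all tested genes called lower, 21.5% called higher and 44.7% called in either direction. The median log2 fold change of the 10 genes was -2.14, against -0.09 over all tested genes. The 8 genes ran from Apoe, 178-fold lower, to Srebf1, 2.07-fold lower, while the receptor gene Nr1h3 and the transporter gene Abcg1 were not called. Against HostAM the same 8 genes were lower, where 23.3% of all tested genes were, and in texAM over exAM the same 8 were higher, where 23.2% of all tested genes were. These comparisons share libraries with each other, so their counts are not separate evidence. After 4 months in the lung, none of the 10 genes was called between texAM and tAM, where 0.00688% of all tested genes (1 gene) was called.

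Library totals ran from 6546272 to 9154128 counts, with the exAM libraries the smallest, and on the first principal component, with 66.8% of the variance, exAM stood apart from the 6 lung libraries. The 12 listed markers of alveolar macrophages were read in every group and together reached 4453 to 5170 CPM (counts scaled to the library size) in exAM and 3514 to 4149 CPM in lung libraries. Of these 12, 7 were higher in exAM than in tAM and 2 lower, namely Krt79 at 1.73 against 199 CPM (116-fold, adjusted p = 4.68e-08) and Siglecf, which encodes the sorted surface marker, at 186 against 338 CPM (1.82-fold, adjusted p = 0.00246). Before scaling, exAM and tAM had similar summed counts of Cd68 (4552 and 4504) and Plet1 (6459 and 6448). The same held for Chil3 (4279 and 4337) and Mrc1 (15849 and 16819). Those of Marco (6087 and 3821), Fabp4 (1917 and 1570) and Car4 (4404 and 4117) were higher in exAM. The part of scaling to the smaller exAM libraries in the 7 higher calls was not tested. Other cells' transcripts moved with the contrast between culture and lung. The airway epithelial list summed to 5.56 to 7.20 CPM in exAM against 568 to 1118 CPM in lung libraries, and 9 of its 9 tested genes were lower in exAM, with Scgb3a2, Bpifa1, Cyp2f2, Krt5 and Epcam at 0. The lymphocyte list summed to 33.1 to 61.3 CPM in exAM against 230 to 317 CPM, with 5 of 7 tested genes lower. The list for monocytes and other macrophages summed to 1230 to 1548 CPM in exAM against 181 to 329 CPM, with 4 of 14 tested genes higher, 7 lower, and C1qa and Cd163 at 0 in exAM. The endothelial and stromal list summed to 53.2 to 65.2 CPM in exAM and to at most 1.76 CPM in lung libraries, with 4 of 4 tested genes higher. Most of that exAM sum was Pdgfra (30.5 CPM on average) and Cdh5 (23.2 CPM). Cldn5, Tek, Col1a1, Col1a2, Col3a1 and Pdgfrb of this list were at 0 in exAM. The alveolar epithelial list was also higher in sum, at 331 to 338 CPM in exAM against 217 to 283 CPM, but 6 of its 11 tested genes were lower and 3 higher, with Sftpc, Sftpa1, Sftpd, Slc34a2 and Aqp5 at 0 in exAM. The dendritic cell list summed to 53.3 to 74.3 CPM in exAM against 94.2 to 184 CPM, with 4 of 7 tested genes lower, 1 higher, and Flt3, Ccr7, Cd209a and Siglech at 0 in exAM. The list for red cells and neutrophils summed to 46.8 to 65.3 CPM in exAM against 144 to 306 CPM, with 5 of 6 tested genes lower, 1 higher, and Hbb-bt, Hba-a1 and Retnlg at 0 in exAM. Reads of Ddx3y, a Y-linked gene, numbered 55 and 59 in culture and 0 in each of the 6 lung libraries, and the labels used here give no sex. By this gene, both exAM pools held male cells, and none were seen in the lung libraries. Sex and culture thus cannot be told apart in exAM against any lung group. The texAM cells may also come from other cultures than those sequenced as exAM. The part of these differences in the results below was not tested. In bulk RNA, fewer cells of a type and less RNA per cell cannot be told apart.

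The stretch upstream of Abca1, Srebf1 and Mylip is shown first, because the first 2 of these share an element and all 3 genes differed between culture and lung. Windows around RefSeq transcript starts (250 bases before to 50 after, GRCm38.p6) were held for 6 of the 10 genes, as 11 windows, with none for Apoc1, Abcg1, Scd1 and Scd2. The sequences below are the 250 bases before the start, on the gene's own strand, with capitals for matches to any motif that was searched. Those motifs, read on both strands, were CACGTG (in 7.15% of 32851 windows of the same length), CCAAT (37.4%), GGGCGG (35.7%), TATAAA (13.6%) and the element described next.
Abca1, chr4:53159896-53160145, minus strand: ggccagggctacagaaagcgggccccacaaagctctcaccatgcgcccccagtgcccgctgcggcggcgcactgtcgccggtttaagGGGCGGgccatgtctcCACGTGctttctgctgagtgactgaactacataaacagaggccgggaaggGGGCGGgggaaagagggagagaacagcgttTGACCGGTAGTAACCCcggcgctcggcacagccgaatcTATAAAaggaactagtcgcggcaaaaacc
Srebf1, chr11:60210472-60210721, minus strand: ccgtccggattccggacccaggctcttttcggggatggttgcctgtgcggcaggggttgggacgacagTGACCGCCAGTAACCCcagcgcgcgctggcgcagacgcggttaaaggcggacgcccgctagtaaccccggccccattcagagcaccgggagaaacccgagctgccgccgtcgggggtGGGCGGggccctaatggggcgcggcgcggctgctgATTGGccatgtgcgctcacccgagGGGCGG
Mylip, chr13:45389492-45389741, plus strand: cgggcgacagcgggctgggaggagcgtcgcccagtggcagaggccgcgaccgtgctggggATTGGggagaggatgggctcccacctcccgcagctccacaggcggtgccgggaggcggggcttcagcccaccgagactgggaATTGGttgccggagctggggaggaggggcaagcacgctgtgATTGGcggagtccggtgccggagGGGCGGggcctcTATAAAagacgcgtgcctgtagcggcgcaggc
The classical element for liver X receptors is a direct repeat of AGGTCA with 4 bases between the copies (DR4). With up to 2 mismatches allowed, it was matched in 3.02% of all windows and in none of the 11 windows of these genes. With up to 3, it was matched in 21.9% of all windows and in 2 of these 11, that of Abca1 and 1 of the 3 of Srebf1. The stretches closest to DR4 in those 2 windows shared the letters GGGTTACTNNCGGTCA. They are seen on the opposite strand in the lines above, as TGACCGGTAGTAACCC 67 to 52 bases before the Abca1 start and as TGACCGCCAGTAACCC 182 to 167 bases before the Srebf1 start. Of all 32851 windows, 3 (0.00913%) held these letters, and the third belonged to Fasn, the fatty acid synthase gene. The letters were taken from the Abca1 and Srebf1 windows, so their rarity supports nothing. On the plus strand of the genome, with the 6 bases of each copy in capitals, the 3 matches read as follows.
Abca1, chr4:53159947-53159962: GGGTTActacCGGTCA
Srebf1, chr11:60210638-60210653: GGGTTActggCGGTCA
Fasn, chr11:120824757-120824772: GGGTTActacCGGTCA
The Mylip window held CCAAT on the opposite strand 3 times, GGGCGG once and TATAAA once, the last 32 to 27 bases before the start. These matches describe letters, and no binding was measured here.

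The receptor gene itself did not follow its targets. Nr1h3 encodes LXR alpha and lies on chromosome 2 (91184061 to 91202834, GRCm38). Its level was 51.3 and 54.3 CPM in exAM, 37.7 and 72.9 CPM in texAM, 48.3 and 63.3 CPM in tAM, and 61.3 and 56.5 CPM in HostAM. The exAM libraries lay between the texAM and between the tAM libraries, and below both HostAM libraries. The log2 fold change of exAM over tAM was -0.08, with a 95% interval of -0.68 to 0.53 and an adjusted p of 0.833 by edgeR's quasi-likelihood test. That interval runs from 0.622 to 1.44 times the tAM level, so the level is not shown to be equal. The spread between the texAM libraries of this gene (SD 24.9 CPM, n = 2) was the widest of its 4 groups.

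**Figure D1:**
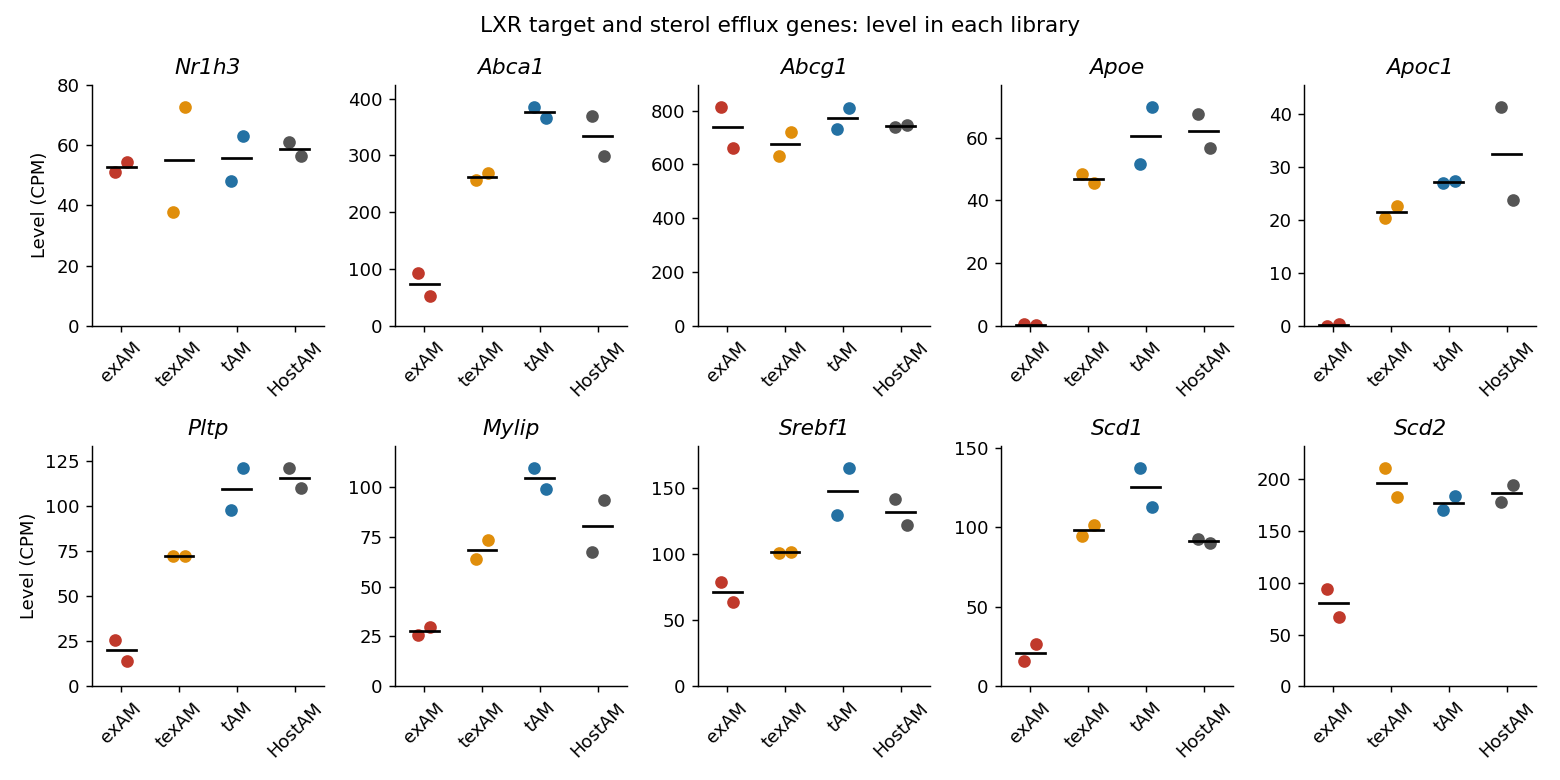
Level of each of the 10 genes in every library, in CPM (vertical axis, starting at 0, own scale for each gene), by group. Points are libraries and bars are group means (n = 2); the exAM points sit near 0 for Apoe and Apoc1 and at the level of the lung groups for Nr1h3 and Abcg1.

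The efflux transporters parted. Abca1 passes cholesterol and phospholipid to lipid-poor apolipoprotein A-I, and its gene lies on chromosome 4 (53030787 to 53159895). It was measured at 93.3 and 52.0 CPM in exAM, against 386 and 367 CPM in tAM, 369.8 and 299.5 CPM in HostAM and 256 and 269 CPM in texAM. Both exAM libraries were far below all 6 lung libraries, and both texAM libraries were below the other 4 of these. The fall in exAM from tAM was 5.19-fold (log2 -2.38 ± 0.22 SE, adjusted p = 1.54e-05), and the rise from exAM to texAM was 3.62-fold. Abcg1 passes cholesterol to high-density lipoprotein particles, and its gene lies on chromosome 17 (31057675 to 31117988). It had 815 and 661 CPM in exAM, 734 and 809.6 CPM in tAM, 741 and 747 CPM in HostAM and 633 and 722 CPM in texAM. The exAM libraries lay on both sides of the tAM and HostAM libraries, while both texAM libraries lay below those 4. The log2 fold change of exAM over tAM was -0.07 with a 95% interval of -0.30 to 0.17 (adjusted p = 0.643), so the level is not shown to be equal. Over all alternatives it ranged from -0.267 to 0.092 and was never called, with a lowest adjusted p of 0.0527 (edgeR or DESeq2). Before scaling, Abcg1 had 4750 and 4279 counts in exAM and 6322 and 6457 in tAM. The part of scaling to the smaller exAM libraries in this result was not tested.

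Set beside each other per kilobase of exon, the ratio of Abca1 to Abcg1 was 0.0807 and 0.0555 in the exAM libraries and 0.262 to 0.370 in the 6 lung libraries. Of the 10 genes, Abcg1 was the most densely read, at 0.586 to 0.921 counts per base of exon in every library. Between the 2 libraries of a group, genes with 0.5 to 1 count per base differed less, at the median, than the library totals did. On the log2 scale these medians and totals were -0.03 and -0.12 in exAM, 0.05 and 0.13 in texAM, 0.05 and 0.10 in tAM, and 0.05 and 0.06 in HostAM. In the thinnest genes the median difference was larger in size than that of the totals in texAM (0.21) and tAM (0.15). It was smaller in size in exAM (-0.10) and HostAM (0). The part of this in the Abcg1 result was not tested.

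The secreted carriers showed the widest differences. Apolipoprotein E takes up cholesterol that leaves macrophages, and apolipoprotein C1 is a small lipoprotein component. Their genes lie side by side on chromosome 7, Apoe from 19696109 to 19699188 and Apoc1 from 19689481 to 19692660, with 3448 bases between them. Apoe was read 2 times in each exAM library (0.343 and 0.309 CPM), but reached 51.4 and 69.8 CPM in tAM, 67.7 and 56.6 CPM in HostAM and 48.3 and 45.5 CPM in texAM. Apoc1 was read 0 and 2 times in exAM (0 and 0.309 CPM), and reached 27.0 and 27.3 CPM in tAM, 41.4 and 23.7 CPM in HostAM and 20.4 and 22.7 CPM in texAM. For both genes every lung library lay far above every exAM library.

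From the summed counts, Apoe was 185-fold lower in exAM than in tAM (95% counting interval 72.2 to 682), and its fitted log2 fold change was -7.48 ± 0.37 SE (adjusted p = 2.96e-07). For Apoc1 the ratio was 167 (46.0 to 1386) and the fitted log2 fold change -7.26 ± 0.62 SE (adjusted p = 9.88e-06). In texAM over exAM the ratio from summed counts was 145 (56.3 to 532) for Apoe and 132 (36.3 to 1095) for Apoc1. These counting intervals cover counting error only. The intervals that follow from the fitted SEs of Apoe and Apoc1 are narrower still. With so few exAM counts, those SEs therefore understate the uncertainty. Per kilobase of exon, the ratio of Apoc1 to Apoe was 1.12 to 1.76 in the lung libraries, and the exAM counts were too few for such a ratio. The 250 bases before the outermost of the 3 Apoe starts held none of the motifs searched and are printed for comparison with the windows of Abca1 and Srebf1.
Apoe, chr7:19699189-19699438, minus strand: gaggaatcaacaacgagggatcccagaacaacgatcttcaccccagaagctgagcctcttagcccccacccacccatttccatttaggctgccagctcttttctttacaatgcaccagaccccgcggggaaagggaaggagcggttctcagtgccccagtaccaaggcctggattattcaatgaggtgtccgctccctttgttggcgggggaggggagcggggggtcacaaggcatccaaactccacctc

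Phospholipid transfer protein, which moves phospholipid between lipoproteins, is encoded by Pltp on chromosome 2 (164839518 to 164857711). Pltp had 25.9 and 13.9 CPM in exAM, 98.1 and 121 CPM in tAM, 121 and 110.2 CPM in HostAM and 72.3 and 72.1 CPM in texAM. The exAM libraries were the lowest, texAM came next, and both texAM libraries lay below all 4 tAM and HostAM libraries. It was 5.53-fold lower in exAM than in tAM (log2 -2.47 ± 0.25 SE, adjusted p = 3.03e-05) and 3.64-fold higher in texAM than in exAM. Of its 2562 exon bases, 495 are shared with Ctsa on the other strand, and the sources used here do not say whether strand was used in counting. Ctsa was 559 ± 44.8 CPM in exAM and 439 ± 20.3 CPM in tAM (SD, n = 2). In CPM it thus differed in the direction opposite to Pltp (log2 0.35, adjusted p = 0.00771 by edgeR's quasi-likelihood test). That call was lost without TMM scaling (0.156) and also without tAM replicate 1 (log2 0.30). Before scaling, Ctsa had 3442 and 3413 counts in exAM and 3658 and 3615 in tAM, so its counts were not higher in exAM.

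Mylip encodes the E3 ubiquitin ligase, also called IDOL, that limits lipoprotein uptake, and lies on chromosome 13 (45389742 to 45412022). It had 25.7 and 29.8 CPM in exAM, 109.7 and 99.1 CPM in tAM, 67.5 and 93.2 CPM in HostAM and 63.6 and 73.2 CPM in texAM. The exAM libraries lay below all lung libraries, and the tAM libraries lay above all others. Mylip was 3.75-fold lower in exAM than in tAM (log2 -1.91 ± 0.19 SE, adjusted p = 3.45e-05) and 2.46-fold higher in texAM than in exAM.

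Srebf1 and the desaturase genes under it were also lower in culture. Srebf1 encodes SREBP-1, the factor that drives fatty acid synthesis, and lies on chromosome 11 (60199089 to 60222581). It had 79.1 and 63.6 CPM in exAM, 129.5 and 165.5 CPM in tAM, 142 and 122 CPM in HostAM and 100.9 and 101.8 CPM in texAM. The 4 groups did not overlap except tAM with HostAM, with exAM lowest and texAM next. Srebf1 was 2.07-fold lower in exAM than in tAM (log2 -1.05 ± 0.16 SE, adjusted p = 0.000539). Its rise from exAM to texAM was 1.42-fold (log2 0.51 ± 0.16 SE, adjusted p = 0.0284), the smallest of the 8, and was no longer called without texAM replicate 1 (adjusted p = 0.0919), without texAM replicate 2 (0.100) or without exAM replicate 2 (0.216). Of its 5634 exon bases, 175 are shared with other genes, among them Rai1 on the other strand, which was also lower in exAM than in tAM (log2 -0.99, adjusted p = 0.00558).

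Scd1 and Scd2 encode stearoyl-CoA desaturases, which make monounsaturated fatty acids, and lie on chromosome 19 (Scd1 44394455 to 44407879, Scd2 44293674 to 44306864). Scd1 had 15.8 and 26.4 CPM in exAM, 137 and 112.6 CPM in tAM, 92.5 and 90.0 CPM in HostAM and 94.7 and 101.6 CPM in texAM. Scd2 had 94.0 and 67.2 CPM in exAM, 170.7 and 184 CPM in tAM, 178 and 194 CPM in HostAM and 211 and 182 CPM in texAM. For both genes the exAM libraries lay below every lung library. Scd1 was 5.90-fold lower in exAM than in tAM (log2 -2.56 ± 0.22 SE, adjusted p = 1.04e-05) and Scd2 2.20-fold (log2 -1.14 ± 0.16 SE, adjusted p = 0.000243). In texAM over exAM the rises were 4.63-fold and 2.45-fold. Per kilobase of exon, Scd1 stood at 0.188 and 0.439 of Scd2 in the exAM libraries and at 0.501 to 0.899 in the lung libraries. The coding sequences are 90.7% identical, and 3.03% of the 50-base stretches of Scd1 exons also occur in Scd2, so a small share of reads could be placed in either gene.

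**Figure D2:**
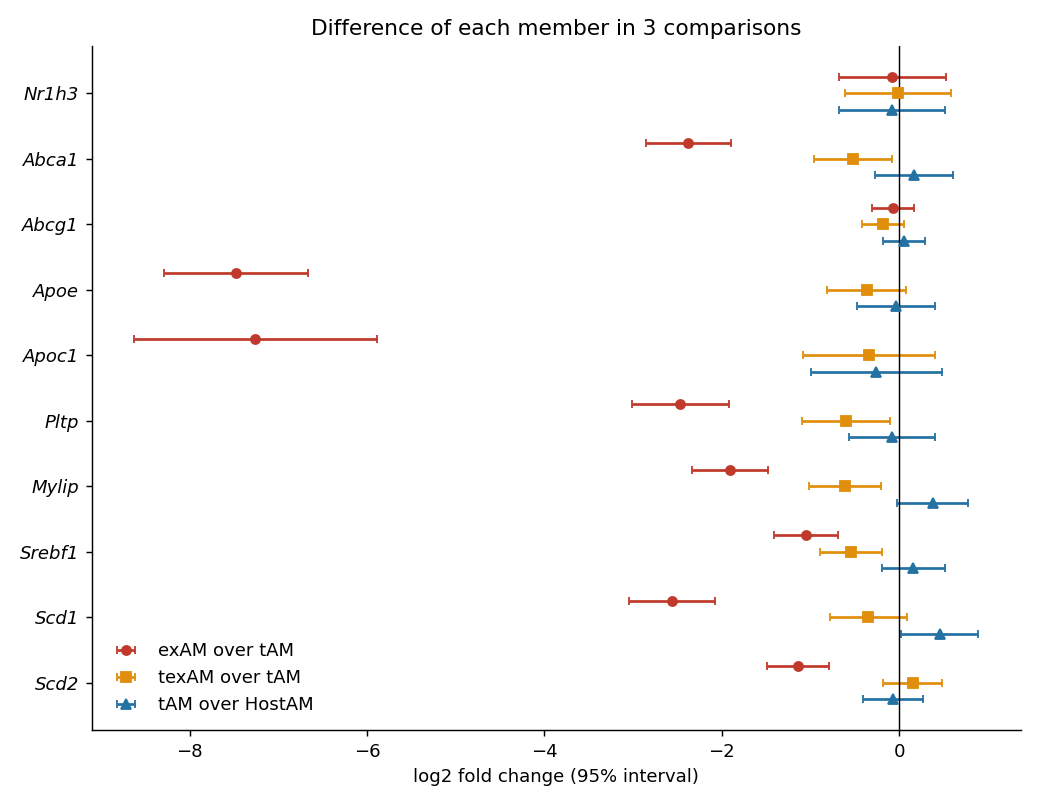
Log2 fold change of each of the 10 genes, with a 95% interval derived from edgeR's F statistic, for exAM over tAM, texAM over tAM and tAM over HostAM. In exAM over tAM the intervals of Apoe and Apoc1 are narrower than counting error alone allows. In exAM over tAM, 8 genes lie well below 0 and Nr1h3 and Abcg1 straddle it; in texAM over tAM most points lie a little below 0.

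Cultured cells that had gone back to the lung came near the uncultured cells, without being shown equal to them. No gene of the 10 was called in texAM against tAM, with adjusted p from 0.454 to 0.998, by edgeR's quasi-likelihood test. DESeq2's Wald test, which called 73 genes in all, called none of the 10 either. Without adjustment 4 of them passed 0.05, where 7.84% of all tested genes did, namely Abca1, Mylip, Srebf1 and Pltp. In these 4 the 95% interval of the log2 fold change lay below 0, which follows from the same test and is not separate evidence. It was -0.96 to -0.08 for Abca1, -1.01 to -0.21 for Mylip, -0.89 to -0.19 for Srebf1 and -1.09 to -0.11 for Pltp. Group means in texAM were 69.8% of tAM for Abca1, 65.5% for Mylip, 68.7% for Srebf1 and 65.9% for Pltp.

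Marker lists moved in these comparisons too, although no listed marker of any cell type was called between texAM and tAM. The alveolar macrophage list summed to 3514 to 3853 CPM in texAM and 3926 to 4149 CPM in tAM, so both texAM libraries lay below both tAM libraries. The list for monocytes and other macrophages lay above, at 239 to 329 CPM against 193 to 214 CPM, with Itgam at 84.0 against 47.4 CPM on average (adjusted p = 0.375) and Ccr2 at 59.4 against 22.1 CPM (adjusted p = 0.434). In that list Trem2 (57.3 against 64.7 CPM), C1qb (11.4 against 17.9 CPM), C1qa and Cd163 were lower in texAM on average. The lymphocyte list also lay above, at 308 to 317 CPM against 252 to 304 CPM, with Cd3g at 23.2 against 5.86 CPM (adjusted p = 0.638). Within it Cd2 (202 against 224 CPM) and Cd8a (1.81 against 2.03 CPM) were lower in texAM on average. The alveolar epithelial list lay above as well, at 238 to 254 against 217 to 227 CPM. So did the list for red cells and neutrophils, at 177 to 306 against 144 to 150.4 CPM. The endothelial and stromal list did too, at 0.456 to 0.626 against 0.116 to 0.125 CPM. The airway epithelial and dendritic lists overlapped. The part of these differences in the values of the 10 genes was not tested.

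In 8 of the 10 genes both texAM libraries lay below both tAM libraries, where 20.2% of all tested genes had that order. The exceptions were Nr1h3, whose groups overlapped (log2 -0.01, 95% interval -0.61 to 0.58), and Scd2 (log2 0.15, -0.18 to 0.48). The median log2 fold change was -0.36 for the 10 genes and 0.00 for all tested genes. With 2 libraries in a group an exact permutation test of 1 gene cannot go below a two-sided p of 0.333. The intervals of the other 4 genes with that order reached 0, at -0.81 to 0.08 for Apoe, -1.08 to 0.41 for Apoc1, -0.42 to 0.05 for Abcg1 and -0.78 to 0.09 for Scd1. Without the filter on low counts, which adds genes with few reads to the table, 2 of the 10 were called in texAM against tAM (Abca1, adjusted p = 0.00134, and Srebf1, 0.0429), among 238 genes or 1.06% of those tested.

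Against HostAM, texAM again had none of the 10 called, with 0.33% of all tested genes called. Both texAM libraries lay below both HostAM libraries in 6 genes (background 21%), above them in 1, Scd1 (background 21.8%), and overlapped in 3. The largest difference was in Pltp (log2 -0.68, adjusted p = 0.226), which was called without the filter on low counts (adjusted p = 0.00759, among 694 genes or 3.08%). Between tAM and HostAM none of the 10 was called either, with 0.0413% of all tested genes called, and 8 of 10 overlapped. Mylip and Scd1 lay above HostAM in both tAM libraries (background 19.1%), and the median log2 fold change was 0.01. The texAM libraries are shared by the first and the tAM libraries by the second of these comparisons with the one above, so they are not independent of it.

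Ordered per kilobase of exon, which allows genes to be compared, Abcg1 was highest in all 4 groups, at 101 CPM per kb in exAM, 92.8 in texAM, 106 in tAM and 102 in HostAM. The next gene was Pltp in tAM and HostAM, Scd2 in texAM and Nr1h3 in exAM. In exAM Nr1h3 stood at 21.0 CPM per kb, then came Scd2 at 14.7 and Srebf1 at 12.7, whose libraries overlapped. Mylip (8.59 CPM per kb), Pltp (7.77), Abca1 (7.01) and Scd1 (4.31) followed, each overlapping the next, and Apoc1 (0.208) and Apoe (0.152) came last. In tAM Nr1h3 was last of the 10, at 22.2 CPM per kb, and Pltp stood second at 42.8 CPM per kb. Apoc1 (36.5) and Abca1 (36.3) overlapped, and from Scd2 (32.5) down to Nr1h3 each gene overlapped its neighbour. In texAM Scd2 (36.0 CPM per kb) was followed by Apoc1 (28.9) and Pltp (28.2), which overlapped. From Abca1 (25.3) through Nr1h3, Apoe and Mylip down to Scd1 (20.1) neighbours overlapped, and Srebf1 was last. In HostAM neighbours overlapped from Pltp (45.2 CPM per kb) through Apoc1, Scd2, Abca1, Apoe, Mylip and Nr1h3 down to Srebf1 (23.4), and Scd1 was last. Levels in CPM per kb are shares of each library, so they do not give molecules per cell.

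**Figure D3:**
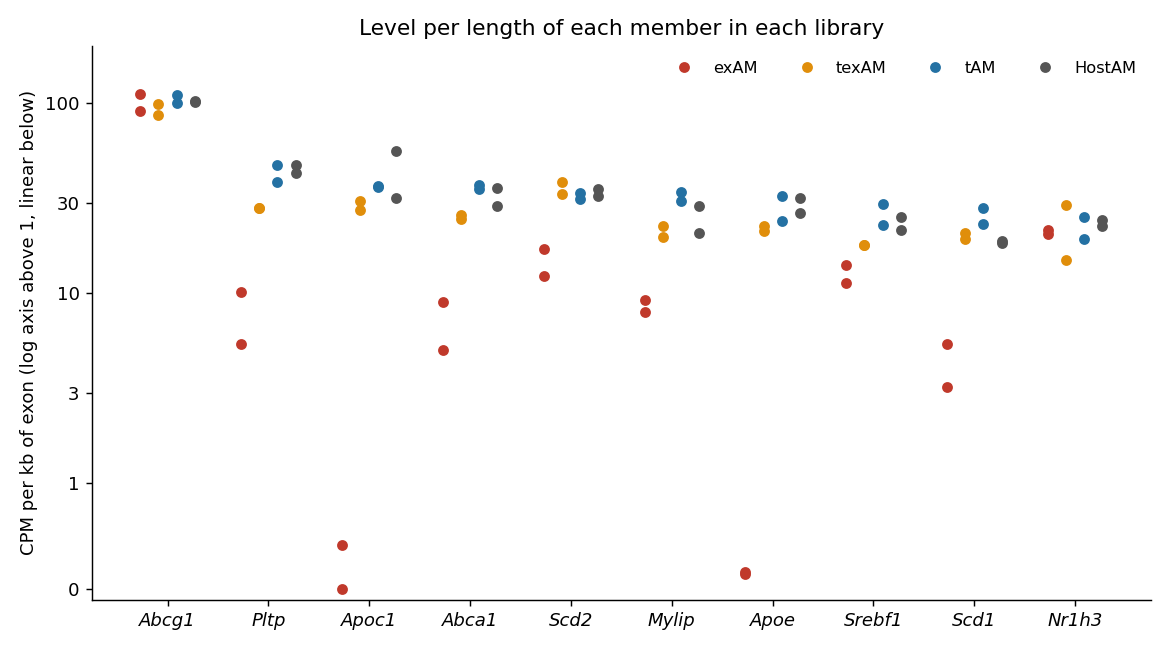
Level of the 10 genes in CPM per kilobase of exon in each library, on an axis that is linear below 1 and logarithmic above. Abcg1 is the highest gene in every group, and Apoe and Apoc1 fall below 1 in exAM alone.

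Other genes of the pathway did not move as a block. Of 11 tested receptor partners and cofactors, 2 were higher in exAM than in tAM and 5 lower (18.2% and 45.5%, against 21.5% and 23.2% of all tested genes), with a median log2 fold change of -0.02. Nr1h2, which encodes the second receptor, LXR beta, had 34.3 CPM on average in exAM and 89.4 CPM in tAM (log2 -1.38 ± 0.18 SE, adjusted p = 0.000167). Rxrb, one of the retinoid X receptors, had 15.6 and 49.5 CPM (log2 -1.67). The corepressor gene Ncor1 was higher, at 680.0 against 514 CPM (log2 0.40), as was the coactivator gene Med1, at 377 against 299 CPM (log2 0.33), and both of these calls were lost without TMM scaling (adjusted p = 0.0612 and 0.204), that of Med1 also without tAM replicate 2 (0.0685).

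Among 8 tested further targets of the receptors in macrophages, 2 were higher, 3 lower and 3 not called (25% higher and 37.5% lower against the same background of 21.5% and 23.2%, median log2 -0.35). Arl4c, a small GTPase tied to cholesterol transport, had the largest fall of them. It stood at 9.33 ± 4.02 CPM in culture against 115 ± 22.2 CPM for tAM (SD, n = 2, log2 -3.64, adjusted p = 3.19e-06). Abca7, a lipid transporter of the same family as Abca1, had 50.9 against 103 CPM (log2 -1.01). Smpdl3a, a secreted phosphodiesterase, was higher at 294 against 162 CPM (log2 0.86). So was lipoprotein lipase, Lpl, at 1173 against 826 CPM (log2 0.51). Before scaling, Lpl had 7146 and 7262 counts in exAM and 7057 and 6644 in tAM. Smpdl3a had 1730 and 1893 counts in exAM and 1420 and 1270 in tAM. The part of scaling to the smaller exAM libraries in the Lpl call was not tested. Among 5 tested enzymes of oxysterols and related sterols, 1 was higher and 3 lower (20.0% and 60.0%, median log2 -1.08). Ch25h, which makes 25-hydroxycholesterol, rose to 124 CPM from 33.3 CPM (log2 1.90). Sult2b1, which sulfates oxysterols, had 1.92 against 8.15 CPM (log2 -2.07, adjusted p = 0.029). The Sult2b1 call was lost when any 1 of the tAM or exAM libraries was left out.

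While Srebf1, Scd1 and Scd2 were lower in culture, 6 of 12 lipogenic genes under SREBP-1 were higher, 1 was lower and 5 were not called (50% higher and 8.33% lower, background 21.5% and 23.2%), with a median log2 fold change of 0.66. Against HostAM 3 of the 12 were higher (background 20.9%), 1 lower and 8 not called, with a median of 0.24. Fads1, the delta-5 desaturase, had 172 CPM in exAM against 50.8 CPM in tAM (log2 1.76). Elovl6, a fatty acid elongase, had 83.1 ± 63.1 against 36.5 CPM on average (log2 1.19, adjusted p = 0.0445), with 38.4 and 128 CPM in the exAM libraries, and without exAM replicate 2 its log2 fold change was 0.09. Its call was also lost without any 1 of the tAM or texAM libraries and in 4 of the other alternatives. Pnpla3, a lipase of lipid droplets, was lower at 1.06 against 8.43 CPM (log2 -2.97). Fasn, named because of the shared upstream element after its values were seen, had 278 ± 34.5 CPM in exAM and 160.1 ± 21.2 CPM in tAM (SD, n = 2; log2 0.79, adjusted p = 0.000563). The 3 genes whose windows held the element did not share a direction: Abca1 and Srebf1 were lower in exAM and Fasn was higher.

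Of 16 tested genes of sterol uptake, storage and trafficking, 8 were higher in exAM than in tAM, 1 was lower and 7 were not called (50% higher and 6.25% lower, background 21.5% and 23.2%, median log2 0.21). The scavenger receptor gene Cd36 had 749 against 241 CPM (log2 1.63) and Soat1, which stores cholesterol as esters, 913 against 445 CPM (log2 1.04). Gramd1a, a carrier of cholesterol within the cell, was lower at 28.2 against 53.8 CPM (log2 -0.93), a call lost without tAM replicate 2 (adjusted p = 0.0541) or exAM replicate 1 (0.0760). In texAM against tAM no gene of any of these lists was called.

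**Figure D4:**
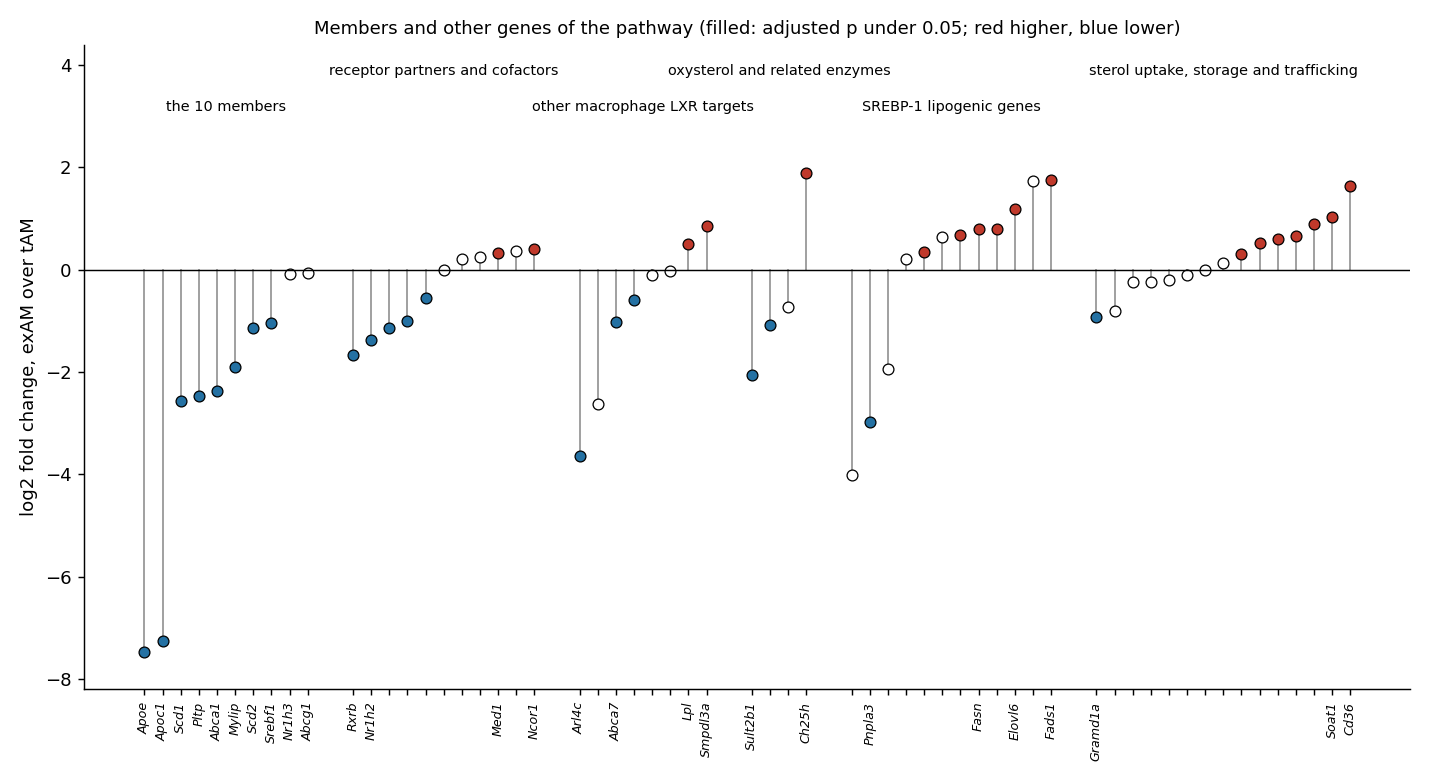
Log2 fold change of exAM over tAM for the 10 genes and for tested genes of 5 other lists, 1 point per gene, with names under the genes that the text describes and genes not reported here left out. Filled points passed an adjusted p of 0.05 (red higher, blue lower in exAM); the 10 genes have no red point, and the list of uptake, storage and trafficking has 7 among those plotted.

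Genes with a course most like that of Apoe over the 8 libraries, by Pearson's r of log2 CPM, were Ptpn6 (r = 0.999), Cidec (r = 0.999) and Ucp3 (r = 0.999). Their mean levels in exAM and tAM were 104 and 252 CPM for Ptpn6, 4.57 and 273 CPM for Cidec and 0.729 and 107 CPM for Ucp3. Since 2 exAM libraries stand apart from 6 lung libraries, such an r mostly describes that one step. Over the 6 lung libraries alone r was 0.855, 0.828 and 0.859. The genes most like Nr1h3 were Arsa (r = 0.917), Ttc38 (r = 0.903) and D17H6S53E (r = 0.868), each near the same mean level in all 4 groups. These r values are descriptions over libraries that share groups and depth.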

How the data were processed

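RNA was measured in 8 libraries. The values are counts of reads per gene that the authors deposited, with Bowtie, HTSeq 0.6.1, R 3.3 and mm10 (GRCm38) named per the submitters' processing notes; whether strand was used in counting, and how duplicate or multiply placed reads were treated, is not given in the sources used here. Total counts per library ran from 6546272 to 9154128. Groups were read from the labels. The 10 genes and all lists were chosen with earlier results of these data known.

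From the counts, genes passing filterByExpr (minimum of 10 counts, 14537 genes) were scaled by TMM and fitted over all 8 libraries with edgeR 4.0.16 (limma 3.58.1, R 4.3.3), using the robust quasi-likelihood fit with 4 residual degrees of freedom. The biological coefficient of variation was 0.22. Each pair of groups was tested by edgeR's quasi-likelihood test, adjusted by Benjamini-Hochberg over all tested genes, and called under 0.05. That p rests on the spread between pools, estimated for each gene with information borrowed from all tested genes. It is therefore not a measure of that gene's own spread alone. CPM uses the TMM library size, and values with ± give the SD over 2 libraries, or the SE where marked. The SE was derived from the test, as the absolute log2 fold change over the square root of its F statistic. The 95% intervals of log2 fold changes use this SE with the residual and prior degrees of freedom. Both are too narrow where a group held 2 to 4 counts. Where a group held 2 to 4 counts, its ratio carries a 95% counting interval (exact, conditional on the summed counts). Exon lengths and positions came from GENCODE M21 (GRCm38), matched for 87.4% of rows, and promoter windows from RefSeq (GRCm38.p6).

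The text names the 10 genes, at most 2 called genes per direction and other list, those that changed most in exAM against tAM, and the 3 genes most like Apoe and like Nr1h3. Some genes of the lists are not reported here; they remain in the list counts. Alternatives were a minimum of 50 counts or none, size factors and the Wald test of DESeq2 1.42.0, library size without TMM, TMM from thinly read genes, a fit of 4 libraries, a 2-fold minimum, the replicate block, and leaving out each library. For list counts and list genes these were added after seeing the data. Scripts were tested on simulated counts.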

Additional observations from a re-analysis of the deposited data

How the results depend on the processing

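The 8 calls of exAM against tAM held in every alternative. Against HostAM 7 to 8 were called and in texAM over exAM 7 to 8, in each case losing Srebf1. For tAM against HostAM the count was 0 throughout. Without the low-count filter, the calls among the 10 genes rose to 2 in texAM against tAM and to 1 in texAM against HostAM. Library size without TMM moved the median of all genes in exAM against tAM from -0.09 to -0.29 and the share of calls that were higher from 48.0% to 34.5% (exAM against HostAM 47.3% to 35.2%, texAM over exAM 53.1% to 68.1%).

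List counts of exAM against tAM moved as follows. Receptor partners higher were 0 without TMM and at 2-fold, and 1 to 3 when 1 library was left out. Other receptor targets higher were 0 at 2-fold. Lipogenic genes higher were 2 at 2-fold, and those lower were 2 without the filter and in the fit of 4 libraries, and 1 to 2 when 1 library was left out. Uptake and storage genes higher were 2 at 2-fold, and those lower were 5 without TMM, 0 at 2-fold and 0 to 1 when 1 library was left out.

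Reversed signs occurred only among values that were not called. Abcg1 in exAM against HostAM was 0.008 with DESeq2 size factors, 0.015 with TMM from thinly read genes and 0.007 by the Wald test. Without TMM, Abcg1 in texAM over exAM was 0.096 and Nr1h3 in texAM against tAM 0.003. Leaving out 1 library, Abcg1 ranged over -0.208 to 0.092 (exAM against tAM), -0.157 to 0.143 (exAM against HostAM), -0.292 to 0.009 (texAM over exAM) and -0.018 to 0.125 (tAM against HostAM). Nr1h3 ranged over -0.262 to 0.130 (exAM against tAM), -0.488 to 0.464 (texAM over exAM), -0.567 to 0.385 (texAM against tAM), -0.643 to 0.310 (texAM against HostAM) and -0.285 to 0.107 (tAM against HostAM). In texAM against HostAM, Mylip ranged over -0.447 to 0.007 and Scd2 over -0.028 to 0.182. In tAM against HostAM the ranges were -0.272 to 0.170 for Apoe, -0.610 to 0.199 for Apoc1, -0.025 to 0.329 for Srebf1 and -0.237 to 0.066 for Pltp. The cause was not tested.

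Same-numbered libraries did not deviate together (correlations -0.061 to 0.0089). Each group gave a single difference, so this cannot decide whether same-numbered samples were paired. With the replicate block, the calls among the 10 genes stayed at 8 in exAM against tAM and 0 in texAM against tAM, while calls over all genes went from 1 to 0 in texAM against tAM and from 48 to 29 in texAM against HostAM. The 2 libraries per group and the 2 to 4 counts of Apoe and Apoc1 in exAM limit the precision of their folds.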
